A study of Homo sapiens with 6 samples.

Results

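Aminoacyl-tRNA synthetases were examined in A549 cells, a human lung adenocarcinoma line, as 38 of the 60612 genes in the deposited table. Members were the genes whose symbol follows the naming of this enzyme family. The 21 genes whose symbol does not end in 2 are called cytosolic here and the 17 that end in 2 mitochondrial. A549 cells transfected with siRNA against GSE1, called siGSE1, gave 3 libraries. The same line transfected with a negative control siRNA gave 3 more, called control. Both groups were harvested 48 h after transfection, all 6 libraries come from the same line, and RNA was sequenced from whole wells. The question set by the study was which transcripts depend on GSE1, a protein of chromatin-modifying corepressor complexes, and its title singles out KLF6. The labels do not say whether the libraries of a group came from separate cultures, so p-values speak only of the variation among these 6 libraries, some of it perhaps technical.

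Aminoacyl-tRNA synthetases join each amino acid to its transfer RNA and so supply the ribosome with its substrates. Most amino acids have 1 enzyme for the cytosol and another, encoded by a separate nuclear gene, for mitochondria. LysRS and GlyRS are made for both compartments from KARS1 and GARS1, and in mammals no mitochondrial glutaminyl enzyme is known, since glutaminyl-tRNA is made there by amidation of a mischarged tRNA. Several cytosolic enzymes sit in a multisynthetase complex held together by the scaffold proteins AIMP1, AIMP2 and EEF1E1. When amino acids run short, uncharged tRNA activates the kinase GCN2, the transcription factor ATF4 accumulates, and many cytosolic synthetase genes are among its known targets.

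Libraries held 17521807 to 19914346 counts in siGSE1 cells and 14475992 to 20755506 in control cells, with control replicate 3 the shallowest. GSE1 itself stood at 3.84, 4.06 and 3.73 FPKM in siGSE1 cells, against 7.37, 8.06 and 7.92 FPKM in control cells, so its log2 fold change was -1.03 (SE 0.06, adjusted p = 2.14e-08 in edgeR). FPKM here is fragments per kilobase of exon, scaled to the library total, as deposited. Of 7 lung epithelial markers, NKX2-1 and SFTPB were under 1 FPKM in every library, and the 7 together summed to 1510 to 1540 FPKM in siGSE1 cells and 1560 to 2050 FPKM in control cells. Of 7 leukocyte markers 5 were under 1 FPKM in every library, with sums of 4.16 to 5.80 FPKM in siGSE1 cells and 4.56 to 7.15 FPKM in control cells. Of the fibroblast markers 6 of 7 were under 1 FPKM throughout, with sums of 1.70 to 2.19 FPKM in siGSE1 cells and 1.24 to 2.00 FPKM in control cells. All 6 endothelial markers were under 1 FPKM.

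All 38 synthetase genes passed the filter on low counts, so none was left out of the test. The cytosolic enzymes were the more abundant class, with a median over genes of 28.3 FPKM in siGSE1 cells and 28.5 FPKM in control cells. The mitochondrial enzymes had a median of 7.26 FPKM in siGSE1 cells and 7.50 FPKM in control cells. Among cytosolic genes IARS1, which charges isoleucine, was highest, at 49.1 ± 1.9 FPKM in siGSE1 cells and 54.2 ± 2.6 FPKM in control cells (SD, n = 3 each). TARS1, which charges threonine, followed with 47.66, 48.88 and 46.98 FPKM in siGSE1 cells, against 51.57, 46.45 and 52.76 FPKM in control cells. The values of IARS1 and TARS1 overlapped in siGSE1 cells and in control cells, so their order lies within the spread. At the other end stood TARS3, a second threonyl-tRNA synthetase gene, with 3.11 ± 0.18 FPKM in siGSE1 cells and 2.33 ± 0.49 FPKM in control cells.

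The most abundant mitochondrial enzyme, IARS2, reached the level of the top cytosolic genes, with 56.66, 55.08 and 53.70 FPKM in siGSE1 cells and 59.25, 59.56 and 56.05 FPKM in control cells. HARS2, the mitochondrial histidyl enzyme, came next with 17.72, 17.89 and 17.96 FPKM in siGSE1 cells and 18.21, 19.20 and 16.83 FPKM in control cells. Every library of IARS2 was far above every library of each other mitochondrial member. VARS2, the mitochondrial valyl enzyme, was lowest, at 0.167 ± 0.032 FPKM in siGSE1 cells and 0.207 ± 0.099 FPKM in control cells, and rested on 15 to 43 counts a library. For most amino acids the cytosolic gene was the more abundant of its pair in FPKM. The exceptions were histidine, with a HARS1 to HARS2 ratio of FPKM of 0.396 in siGSE1 cells and 0.372 in control cells, and isoleucine, with an IARS1 to IARS2 ratio of 0.890 in siGSE1 cells and 0.932 in control cells. The isoleucine ratio exceeded 1 in control replicate 3 alone, at 1.02. HARS1 and HARS2 lie on opposite strands of chromosome 5 and their annotated spans overlap by 108 bases, and no source used here says whether the counting used strand. Their values are therefore uncertain as far as reads from that overlap go. FPKM divides by the whole exonic length, which runs from 2147 bases for YARS2 to 20639 bases for LARS1. That length is 14155 bases for HARS1 and 3719 for HARS2, and 7401 for IARS1 and 4135 for IARS2. In raw counts HARS1 exceeded HARS2 and IARS1 exceeded IARS2 in every library, so both exceptions rest on that division.

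**Figure D1:**
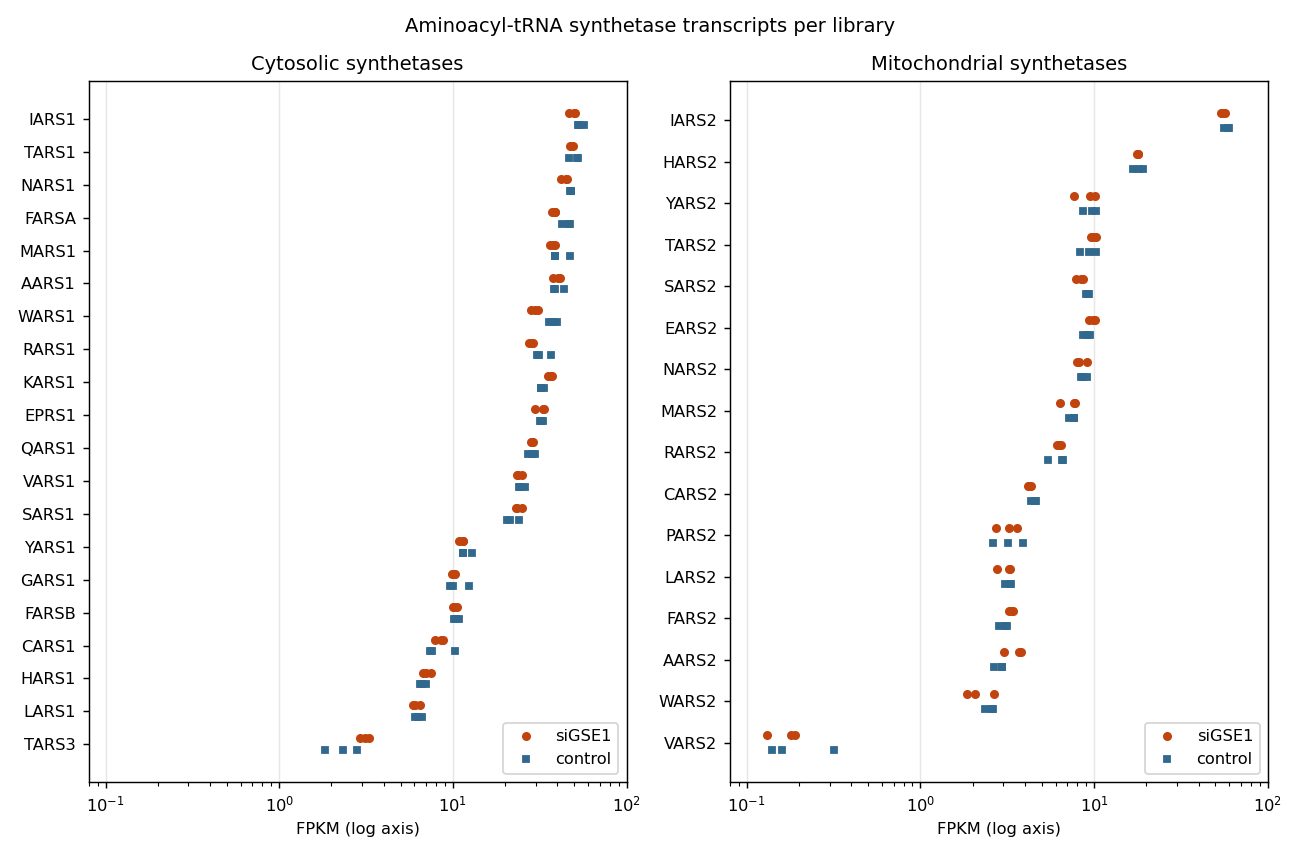
FPKM of synthetase genes in each library on a log axis, cytosolic genes on the left and mitochondrial genes on the right. Orange circles are the 3 siGSE1 libraries and blue squares the 3 control libraries, and genes run from high to low. IARS2 sits apart from the other mitochondrial genes and VARS2 is the only member under 1 FPKM.

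Relative to control cells, siGSE1 cells had lower transcript levels of 4 cytosolic synthetases: WARS1 for tryptophan, FARSA for phenylalanine, RARS1 for arginine and IARS1 for isoleucine. These changes were small, between 10.9% and 23.0% lower. In edgeR's quasi-likelihood test with Benjamini-Hochberg adjustment, 0 cytosolic members rose, 4 fell and 17 did not pass, so 19.0% of the class was called against 19.9% of all 15937 genes tested. By direction, 9.02% of all genes fell and 10.9% rose. DESeq2 also gave 0 that rose and 4 that fell, and at an unadjusted p under 0.05 there were 2 higher and 6 lower, against 17.0% and 15.5% of all genes. With libraries scaled to equal TPM, 2 cytosolic members rose (KARS1 and TARS3) and 2 fell, while over all genes 16.0% rose and 5.83% fell. Levels are scaled between libraries, so they show neither the number of cells nor the total RNA per cell. In RNA from whole wells, a lower level in every cell and in only some cells cannot be told apart.

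No mitochondrial member was called by edgeR or by DESeq2. At an unadjusted p under 0.05, 1 of 17 was higher, AARS2, and 2 were lower, SARS2 among them, against 17.0% and 15.5% of all genes. With TPM scaling 1 mitochondrial gene rose, AARS2. The median log2 fold change was -0.08 in each class, against 0.00 over all genes tested. A fold change below 0 was found for 29 of the 38 members, 17 cytosolic and 12 mitochondrial, and for 49.4% of all genes. TPM scaling moved both class medians to -0.02 and the median of all genes to 0.067.

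**Figure D2:**
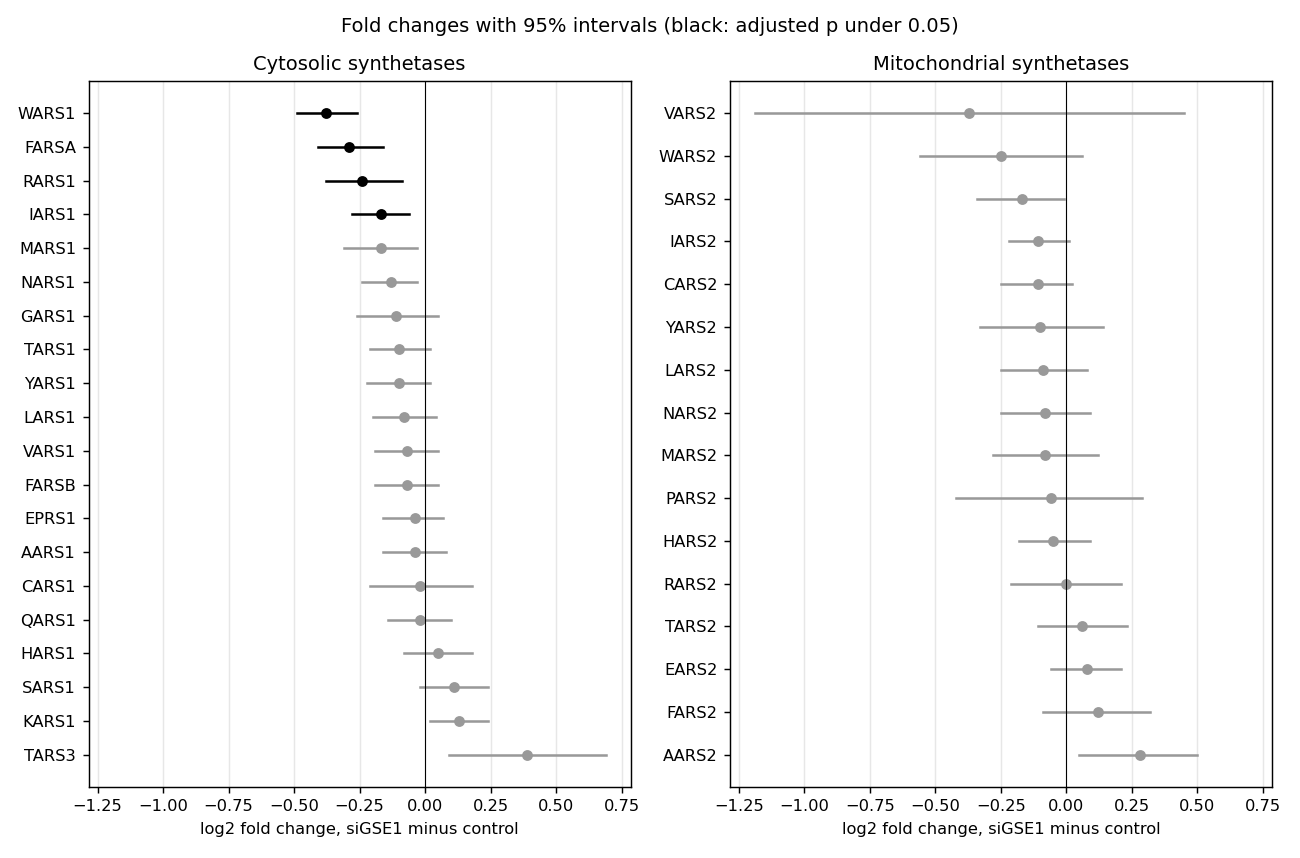
Log2 fold change of synthetase genes, siGSE1 minus control, with its 95% confidence interval, cytosolic genes on the left and mitochondrial genes on the right. Black marks the 4 genes past an adjusted p of 0.05 and grey the others. The 4 called genes lie between -0.38 and -0.17, and the interval of VARS2 is the widest.

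WARS1, the cytosolic tryptophanyl enzyme and a gene known to be induced by interferon, had the smallest adjusted p of the family. It stood at 30.83, 29.86 and 28.10 FPKM in siGSE1 cells, against 36.00, 39.60 and 37.69 FPKM in control cells. Every siGSE1 library was below every control library. The means were 29.6 ± 1.4 FPKM in siGSE1 cells and 37.8 ± 1.8 FPKM in control cells, and the log2 fold change was -0.38 (SE 0.05, 95% interval -0.49 to -0.26, edgeR adjusted p = 0.000165). The gene lies at chr14:100333790-100376805 on the minus strand of hg38.

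FARSA encodes the alpha subunit of the cytosolic phenylalanyl enzyme, which works as a complex with the beta subunit encoded by FARSB. FARSA stood at 37.16, 38.86 and 38.52 FPKM in siGSE1 cells, against 47.56, 46.95 and 42.54 FPKM in control cells, again with no overlap. The log2 fold change was -0.29 (SE 0.06, edgeR adjusted p = 0.00305). FARSB averaged 10.2 ± 0.30 FPKM in siGSE1 cells and 10.5 ± 0.33 FPKM in control cells and did not pass the test (log2 fold change -0.07, 95% interval -0.19 to 0.05). The ratio of FARSA to FARSB was 3.73, 3.69 and 3.81 in siGSE1 cells, against 4.54, 4.32 and 4.16 in control cells. The ratios did not overlap, which in a two-sided exact permutation test always gives p = 0.1, the smallest that 3 against 3 libraries allow. The ratio reuses the counts by which FARSA was called, so it is no separate evidence. WARS1 and FARSA were called in each of the 15 other fits that were run at the same threshold.

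RARS1 and IARS1, both of the multisynthetase complex, were called with less margin. RARS1 stood at 28.54, 28.82 and 27.61 FPKM in siGSE1 cells, against 36.56, 31.25 and 30.53 FPKM in control cells. The groups did not overlap, and control replicate 1 was well above the other controls. The log2 fold change was -0.24 (SE 0.07, edgeR adjusted p = 0.0232), and without control replicate 1 it was -0.14 with an adjusted p of 0.116. IARS1 stood at 50.65, 49.74 and 46.92 FPKM in siGSE1 cells, against 52.51, 52.93 and 57.24 FPKM in control cells. Its groups lay close together without overlap, and control replicate 3 was the highest. The log2 fold change was -0.17 (SE 0.05, edgeR adjusted p = 0.0315), and without control replicate 3 it was -0.14 with an adjusted p of 0.0795. Both calls were also lost when any 1 of the siGSE1 libraries was left out, with adjusted p-values of 0.0619 to 0.162. With TPM scaling and in limma both were lost, and IARS1 was also lost without TMM, edgeR's scaling between libraries (adjusted p = 0.0619).

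**Figure D3:**
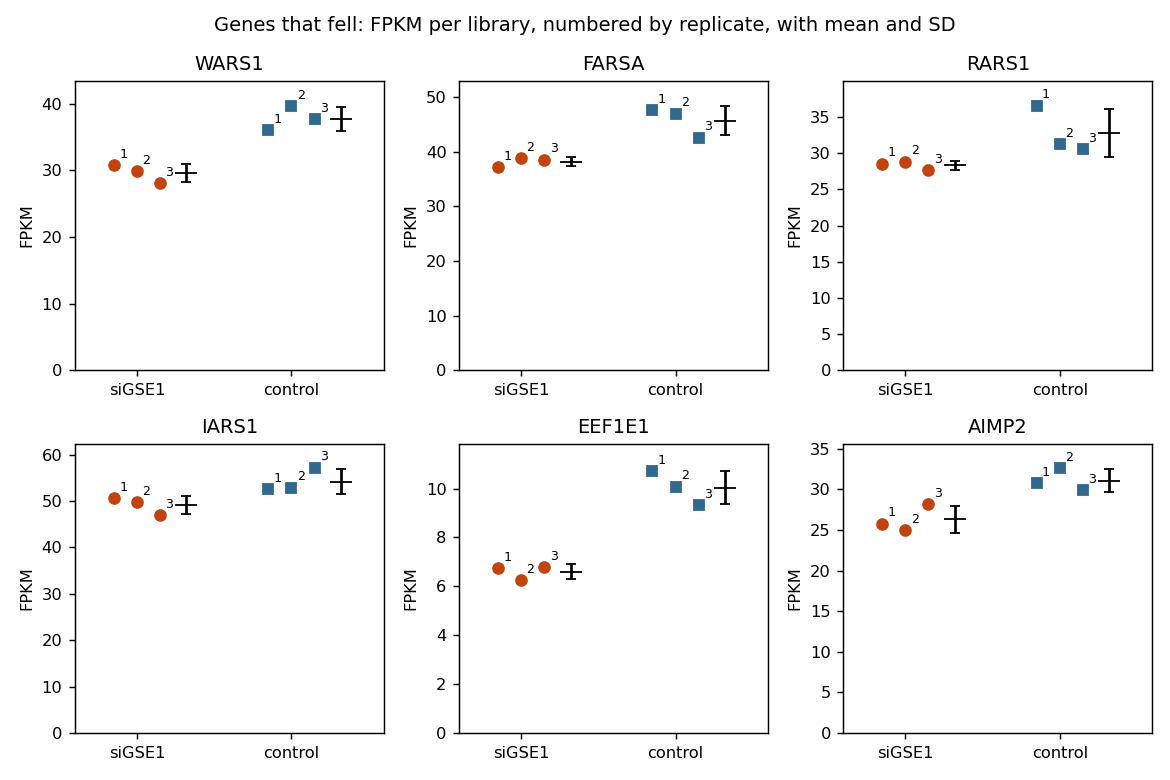
FPKM per library of the 4 synthetase genes that fell and of 2 scaffold genes of the multisynthetase complex that fell, EEF1E1 and AIMP2. Orange circles are siGSE1 and blue squares control, numbered by replicate, with the mean and SD (n = 3) beside them. No siGSE1 library reaches the lowest control library in any panel.

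The other 17 cytosolic members did not pass the test. The 95% interval of the fold change stayed within 1.5-fold in either direction for 20 of the 21 cytosolic genes, the exception being TARS3. The same held for 10023 of all 15937 genes tested. That bound is wider than the changes of the 4 genes that fell, so it does not exclude changes of their size. TARS3 stood at 3.13, 2.93 and 3.28 FPKM in siGSE1 cells, against 2.82, 1.84 and 2.34 FPKM in control cells, without overlap (log2 fold change 0.39, 95% interval 0.09 to 0.69, edgeR adjusted p = 0.0646). KARS1, the lysyl enzyme, stood at 35.08, 36.54 and 37.39 FPKM in siGSE1 cells, against 32.29, 32.03 and 33.63 FPKM in control cells, also without overlap (0.13, adjusted p = 0.0901). These were the only cytosolic genes whose siGSE1 libraries were all above the controls, 2 of 21 against 21.2% of all genes. In the opposite direction 5 of 21 did not overlap, against 14.9% of all genes, namely the 4 that fell and NARS1, the asparaginyl enzyme (44.2 ± 1.8 FPKM in siGSE1 cells and 47.7 ± 0.53 FPKM in control cells, adjusted p = 0.0779). MARS1, the methionyl enzyme, had a log2 fold change of -0.17 with overlapping groups (adjusted p = 0.0826).

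Other cytosolic genes had log2 fold changes of -0.11 to 0.11. Below 0 lay GARS1 for glycine (-0.11), TARS1 for threonine and YARS1 for tyrosine (-0.10 each). LARS1 for leucine (-0.08), VARS1 for valine (-0.07), AARS1 for alanine and the bifunctional glutamyl-prolyl enzyme EPRS1 (-0.04 each) and QARS1 for glutamine and CARS1 for cysteine (-0.02 each) were closer to it. Above 0 lay HARS1 for histidine (0.05) and SARS1 for serine (0.11), whose enzyme also charges the selenocysteine tRNA. SARS1 stood at 25.15, 23.52 and 23.16 FPKM in siGSE1 cells, against 20.52, 21.22 and 23.89 FPKM in control cells, so control replicate 3 alone reached into the siGSE1 range.

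Among the mitochondrial enzymes the 95% interval stayed within 1.5-fold for 16 of 17, beside 10023 of all 15937 genes tested. The mitochondrial exception was VARS2 (log2 fold change -0.37, 95% interval -1.19 to 0.45). AARS2, the mitochondrial alanyl enzyme, stood at 3.02, 3.81 and 3.68 FPKM in siGSE1 cells, against 2.67, 2.94 and 2.94 FPKM in control cells (0.28, edgeR adjusted p = 0.0801). Its groups did not overlap, and neither did those of FARS2, the phenylalanyl enzyme, which averaged 3.33 FPKM in siGSE1 cells and 3.03 FPKM in control cells. These 2 of 17 stand against 21.2% of all genes that were higher without overlap. Without overlap in the opposite direction were 3 of 17, against 14.9% of all genes. Among them were CARS2 for cysteine (log2 fold change -0.11) and SARS2 for serine (-0.17). IARS2 had a log2 fold change of -0.11 (adjusted p = 0.175) and HARS2 of -0.05. WARS2 was at -0.25, with an interval of -0.56 to 0.06. LARS2, MARS2, NARS2, PARS2 and YARS2 ranged from -0.10 to -0.06, and RARS2, TARS2 and EARS2 from 0.00 to 0.08.

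Summed over the class, cytosolic synthetase FPKM was 537.0, 536.5 and 516.4 in siGSE1 cells, against 559.6, 550.4 and 577.3 in control cells. Mitochondrial synthetase FPKM summed to 163.4, 165.3 and 160.8 in siGSE1 cells, against 170.1, 172.2 and 161.1 in control cells. The cytosolic sums did not overlap between the groups, whereas the mitochondrial sums did. FPKM summed over all 15937 genes tested was 295857.8, 297306.3 and 295471.4 in siGSE1 cells, against 305402.2, 304069.4 and 302688.0 in control cells. Those sums did not overlap either, so separation of the sums alone was not particular to the synthetases. How large each gap was relative to its sum was not compared. Across the 16 pairs of a cytosolic and a mitochondrial gene for the same amino acid, 2 ratios separated the groups. The SARS1 to SARS2 ratio was 3.19, 2.81 and 2.69 in siGSE1 cells, against 2.22, 2.28 and 2.65 in control cells. The RARS1 to RARS2 ratio was 4.53, 4.45 and 4.52 in siGSE1 cells, against 5.60, 5.77 and 4.59 in control cells. Both gaps were narrow, and these ratios were not tested and have no share over other gene pairs beside them. For single genes in FPKM, 21.2% of all genes were higher and 14.9% lower without overlap.

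The multisynthetase complex was followed through its 8 synthetases and its 3 scaffold proteins. Of the synthetases 2 fell, IARS1 and RARS1, as did 2 of the other 13 cytosolic genes. Of the scaffold genes 2 of 3 fell. EEF1E1, also known as AIMP3, stood at 6.75, 6.24 and 6.78 FPKM in siGSE1 cells, against 10.71, 10.08 and 9.33 FPKM in control cells. This gap was wide relative to the spread of either group, at -0.64 on the log2 scale (SE 0.10, edgeR adjusted p = 0.000274), and was called in each of the 15 other fits. AIMP2 stood at 25.79, 25.02 and 28.21 FPKM in siGSE1 cells, against 30.81, 32.60 and 29.89 FPKM in control cells (-0.27, SE 0.07, adjusted p = 0.0118). Its call was lost without siGSE1 replicate 1 (adjusted p = 0.0567) or replicate 2 (adjusted p = 0.0776). AIMP1 averaged 5.29 ± 0.29 FPKM in siGSE1 cells and 5.41 ± 0.35 FPKM in control cells and did not pass. Of the 11 complex genes together 4 fell, 0 rose and 7 did not pass, where 9.02% of all genes fell and 10.9% rose. Leaving out siGSE1 replicate 1 or 2 left 1 complex gene that fell.

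Other steps of tRNA supply were read from lists of 57 genes in all, the scaffold included, of which 0 rose, 12 fell and 45 did not pass. The share called was 21.1%, near the 19.9% of all genes, of which 9.02% fell. At an unadjusted p under 0.05, 4 were higher and 18 lower, against 17.0% and 15.5% of all genes, and DESeq2 called 0 higher and 11 lower. Among 29 genes of tRNA processing and export 4 fell. TRMT10C, a subunit of mitochondrial RNase P, averaged 9.21 ± 0.25 FPKM in siGSE1 cells and 12.2 ± 0.71 FPKM in control cells (log2 fold change -0.44, edgeR adjusted p = 0.00256). The La protein gene SSB, which binds nascent tRNA ends (-0.29, adjusted p = 0.00587), the tRNA ligase complex component FAM98B (-0.35, adjusted p = 0.00792) and the tRNA exporter XPOT (-0.23, adjusted p = 0.0172) were the others. XPOT was not called without control replicate 3 (-0.16, adjusted p = 0.0595) or any 1 siGSE1 library, nor with TPM scaling (adjusted p = 0.082) or in limma (adjusted p = 0.104 and 0.101), SSB not without siGSE1 replicate 3 (adjusted p = 0.0542) and FAM98B not without siGSE1 replicate 1 (adjusted p = 0.0504).

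Among 7 genes that deliver charged tRNA to the ribosome 2 fell. The share of all genes that fell was 9.02%, to be set beside this list and those below. EEF1A1, the elongation factor that carries charged tRNA, averaged 738 ± 24 FPKM in siGSE1 cells and 860 ± 42 FPKM in control cells (-0.25, edgeR adjusted p = 0.00283). EEF1B2, a subunit of its exchange factor, averaged 158 ± 3.3 FPKM in siGSE1 cells and 185 ± 5.9 FPKM in control cells (-0.25, adjusted p = 0.00219). Both genes have processed pseudogenes that could share reads, so their levels are uncertain. Among 7 selenocysteine genes 2 fell: SECISBP2, which binds the selenocysteine insertion element (-0.29, adjusted p = 0.00451), and SEPHS2, which makes the selenium donor (-0.21, adjusted p = 0.011). SEPHS2 was not called without siGSE1 replicate 1 (adjusted p = 0.0524) or replicate 2 (adjusted p = 0.0601), nor with TPM scaling (adjusted p = 0.0601), and SECISBP2 not in limma on log2 of FPKM plus 1 (adjusted p = 0.0537). Among 4 genes of mitochondrial tRNA amidation and formylation 1 fell, QRSL1, the glutaminyl amidotransferase subunit (-0.33, adjusted p = 0.0153), which was not called without siGSE1 replicate 2 (adjusted p = 0.0751) or in limma on log2 of FPKM plus 1 (adjusted p = 0.0531). None of 3 trans-editing factors passed in edgeR or DESeq2, and none had an unadjusted p under 0.05. The 2 most abundant, DTD1 and DTD2, which clear wrongly charged tRNA, had log2 fold changes of -0.11 and -0.07.

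Among 4 genes of the response to uncharged tRNA, which include its regulators and ATF4, 1 passed in edgeR and 0 in DESeq2. In edgeR 19.9% of all genes passed. IMPACT, an inhibitor of GCN2 activation, averaged 4.24 FPKM in siGSE1 cells and 5.01 FPKM in control cells (-0.26, edgeR adjusted p = 0.0448). Its call was lost in 12 of 15 other fits. ATF4, the transcription factor downstream of GCN2 and controlled largely by translation, stood at 123.04, 119.80 and 121.73 FPKM in siGSE1 cells, against 112.24, 110.54 and 119.79 FPKM in control cells. The lowest siGSE1 value was barely above the highest control value, and the test was not passed (0.07, edgeR adjusted p = 0.394).

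The promoters of the family were read for the core of the amino acid response element, the sequence bound by ATF4 with a partner, because many synthetase genes are known targets of ATF4. RefSeq promoter windows on GRCh38.p14, 250 bases before to 50 bases after an annotated start, were found for 30 members, 16 cytosolic and 14 mitochondrial. AARS2, LARS1, TARS3, VARS1, VARS2 and YARS1 were among the 8 without one. The letters searched were TGATGNAAN, on both strands. They occurred in 7 of 16 cytosolic members (43.8%) and 1 of 14 mitochondrial members, against 4.45% of all 27305 genes with a window. The stretches of 30 bases around each match follow, 5′ to 3′ on the strand of the gene, with the matched letters in capitals. Matches written as the reverse complement end in the letters CATCA.
TARS1: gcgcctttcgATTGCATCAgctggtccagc
GARS1: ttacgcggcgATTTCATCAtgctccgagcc
IARS1: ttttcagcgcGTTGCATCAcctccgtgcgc
CARS1: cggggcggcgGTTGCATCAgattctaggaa
MARS1: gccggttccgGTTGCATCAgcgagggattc
AARS1: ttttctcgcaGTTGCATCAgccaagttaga
NARS1: ctacgctctcTGATGCAACgccggaatcgc
YARS2: tccacactgcTGATGGAAAaattaagttta

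Read on the strand that starts with TGATG, IARS1, CARS1, MARS1, AARS1 and NARS1 shared the 9 letters TGATGCAAC. TARS1 carried TGATGCAAT, GARS1 TGATGAAAT and YARS2 TGATGGAAA. With the annotated start of the window as base 1, the match of TARS1 (chr5:33440956-33440985, plus strand) begins at base 2 and that of NARS1 (chr18:57621803-57621832, minus strand) at base 15. The matches of CARS1 (chr11:3057407-3057436, minus), MARS1 (chr12:57488053-57488082, plus), IARS1 (chr9:92293692-92293721, minus) and GARS1 (chr7:30594834-30594863, plus) begin 3, 5, 14 and 34 bases before the start. Those of AARS1 (chr16:70289675-70289704, minus) and YARS2 (chr12:32756075-32756104, minus) begin 188 and 197 bases before the start. A match is a description of the letters and was not tested as a binding site.

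Control replicate 3 stood apart from the other controls in the synthetases known as ATF4 targets. In FPKM it was above both other control libraries in 11 of these 12 genes, the exception being WARS1, against 1 of the other 9 cytosolic genes, 3 of 17 mitochondrial genes and 37.3% of all genes. In log2 CPM, which uses the TMM scaling of the test, it was above both in 10 of the 12, the exceptions being WARS1 and NARS1, against 33.2% of all genes, and TARS1 was nearly level with control replicate 1. It was the highest of all 6 libraries in FPKM in 9 of the 12 genes, and in 18.8% of all genes, and in log2 CPM in 8 of the 12. CARS1 stood at 8.75, 8.53 and 7.90 FPKM in siGSE1 cells, against 7.55, 7.35 and 10.24 FPKM in control cells. GARS1 stood at 10.30, 10.09 and 9.85 FPKM in siGSE1 cells, against 9.98, 9.68 and 12.40 FPKM in control cells. MARS1 stood at 38.77, 37.57 and 36.50 FPKM in siGSE1 cells, against 38.99, 38.66 and 47.43 FPKM in control cells. In each of the 3 genes control replicate 3 was the highest library, and control replicates 1 and 2 lay close together.

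In FPKM, control replicate 3 exceeded the mean of control replicates 1 and 2 by a median of 10.4% over the 12 ATF4 targets. The median was -5.30% over the other 9 cytosolic genes, -5.65% over the mitochondrial genes and 1.47% over all genes. The same library was the highest of the 6 in FPKM in 7 of the 8 members with the response element letters, and in log2 CPM in 6 of the 8. The exception in FPKM was YARS2, the mitochondrial one, where control replicate 1 was the highest, and NARS1 joined it in log2 CPM. In FPKM control replicate 3 was the highest in 1 of the 22 members that have a promoter entry without the letters, and in log2 CPM in 0 of them. The 7 cytosolic members with the letters all belong to the 12 ATF4 targets, so this split recounts the same genes and is no separate evidence. A list of 23 other amino acid response targets, such as transporters and serine synthesis enzymes, was above both other controls in control replicate 3 in 23 of 23 genes, by a median of 30.4%. In these 23 genes the median deviation from the control mean was -0.03, -0.05 and -0.02 on the log2 scale in siGSE1 replicates 1 to 3, and -0.12, -0.11 and 0.24 in control replicates 1 to 3. The cause of the difference between control libraries was not tested.

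**Figure D4:**
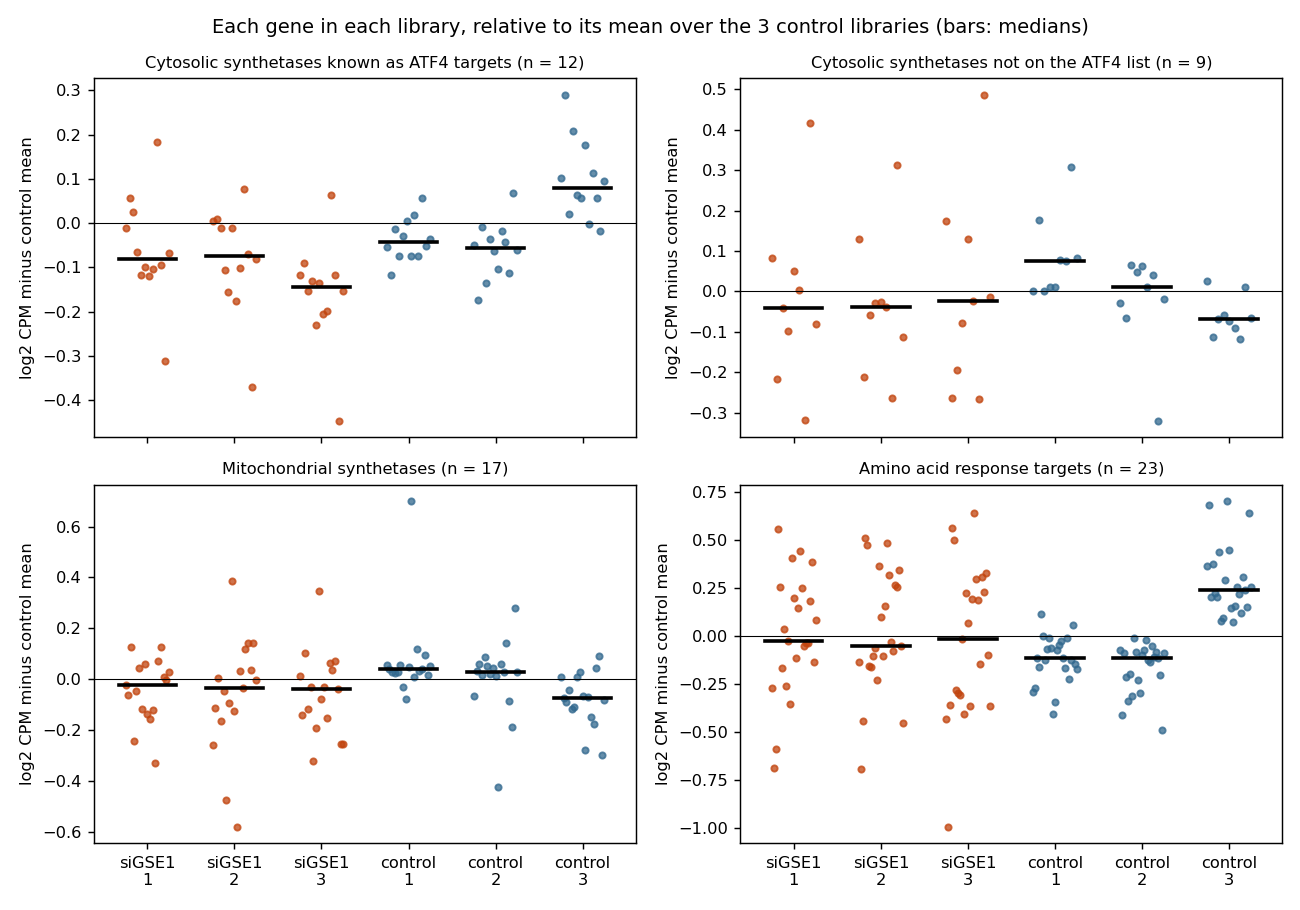
Each gene of 4 lists in each library, as log2 CPM minus its mean over the 3 control libraries, siGSE1 in orange and control in blue, with black bars at the medians. In the ATF4 targets and the amino acid response targets control replicate 3 has the highest median, 0.08 and 0.24, while in the other cytosolic and the mitochondrial genes it has the lowest, -0.07 in each.

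How many ATF4 targets passed the test depended on which libraries entered it. With all 6 libraries 2 of the 12 genes fell, WARS1 and IARS1, and 0 rose, where 9.02% of all genes fell and 10.9% rose. Without control replicate 2, 6 fell, with GARS1 (-0.17, edgeR adjusted p = 0.035), MARS1 (-0.22, adjusted p = 0.00341), NARS1 (-0.14, adjusted p = 0.049) and TARS1 (-0.15, adjusted p = 0.0325) added. Without control replicate 3, WARS1 alone fell (-0.39, adjusted p = 0.000329). The same count of 1 was found when any 1 siGSE1 library was left out. The number of all genes that fell also changed with the library left out. Without control replicate 2, 2 of the other 9 cytosolic genes and 0 of 17 mitochondrial genes fell, the same counts as with all 6 libraries.

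The 23 other amino acid response targets split: 6 rose, 4 fell and 13 did not pass, beside 9.02% of all genes that fell and 10.9% that rose. Their median was -0.04 on the log2 scale. SLC7A5, the light chain of the large neutral amino acid transporter, stood at 558.08, 578.09 and 641.06 FPKM in siGSE1 cells, against 392.93, 370.36 and 455.09 FPKM in control cells (0.52, SE 0.07, edgeR adjusted p = 5.84e-05). TRIB3, a pseudokinase that restrains ATF4, stood at 90.32, 87.99 and 90.80 FPKM in siGSE1 cells, against 53.43, 52.28 and 79.38 FPKM in control cells (0.52, adjusted p = 0.00275). It was not called with the robust prior (adjusted p = 0.135), and DESeq2 gave an adjusted p of 0.0495. VLDLR, a lipoprotein receptor, averaged 7.19 ± 0.15 FPKM in siGSE1 cells and 5.56 ± 0.71 FPKM in control cells (0.35, adjusted p = 0.0047). All siGSE1 libraries were above all controls in these 3 genes. CHAC1, which degrades glutathione, stood at 5.93, 5.95 and 4.77 FPKM in siGSE1 cells, against 7.72, 7.09 and 15.36 FPKM in control cells (-0.86, adjusted p = 0.0104). Its control replicate 3 was far above the other controls, and without that library the log2 fold change was -0.46 (adjusted p = 0.022). Its call was lost without siGSE1 replicate 3 (-0.76, adjusted p = 0.0801), in DESeq2 (adjusted p = 0.075), with the robust prior (adjusted p = 0.201) and in limma on log2 of FPKM plus 1 or 0.1 (adjusted p = 0.104 and 0.0938). Without control replicate 3 the list had 9 genes that rose, 1 that fell and a median of 0.14. DESeq2 called 6 higher and 1 lower, the robust prior 4 and 2, and either limma fit 4 and 1.

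WARS1, one of the ATF4 targets in which control replicate 3 was not the highest control, was set beside a list of interferon response genes. Its window held the core of the interferon-stimulated response element, a pair of GAAA repeats spaced by any 2 bases. The core was searched on both strands and found in 2 of 30 members and 4.38% of all genes. The stretch at chr14:100375383-100375412 on the minus strand of GRCh38.p14, where the match begins 55 bases before the start, reads as follows, with the match in capitals.
WARS1: tttcagaaggGAAACTGAAAgaaagagggg

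The other member with these letters was EARS2, the mitochondrial glutamyl enzyme, with log2 fold change 0.08. Of 12 interferon response genes 11 passed the filter on low counts, and of these 7 fell, 0 rose and 4 did not pass, where 9.02% of all genes fell. The median log2 fold change was -0.39, and DESeq2 also called 7 lower. Single genes ran from -0.93 to 0.30, so the list did not move as 1. ISG15, a ubiquitin-like protein induced by interferon, stood at 107.23, 96.44 and 105.64 FPKM in siGSE1 cells, against 139.19, 166.38 and 132.66 FPKM in control cells (-0.53, edgeR adjusted p = 0.00016). IFIT3 (-0.46, adjusted p = 0.000866) and IFIT1 (-0.43, adjusted p = 0.00102), which bind foreign RNA or its sensors, also fell. WARS1 and 9 of the 11 interferon response genes shared control replicate 2 as the highest control library, against 34.4% of all genes. Without control replicate 2 the log2 fold change of WARS1 was -0.34 (adjusted p = 4.01e-06), and the list had 7 that fell, 1 that rose and a median of -0.34. The cause of the lower WARS1 level was not tested.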

How the data were processed

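The authors deposited 1 table of 60612 genes with raw counts and FPKM for 6 libraries of A549 cells. The submitters' processing notes name bcl2fastq, FastQC, cutadapt, HISAT2, StringTie 1.3.3b, HTSeq, edgeR and build hg38, without roles or order, whereas the series text names STAR, RPKM and DESeq2 and calls the reads both paired and single-end. No source used here gives the annotation release or the strand setting of the counting. The deposited FPKM equalled count over exonic length and library total, within 0.0051, for 100% of values.

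Counts were tested with edgeR 4.0.16 (R 4.3.3): TMM, genes kept by filterByExpr at a minimum count of 10, and the quasi-likelihood test of siGSE1 minus control over 15937 genes, with Benjamini-Hochberg adjustment and a threshold of 0.05. The script was tested on simulated counts. The common biological coefficient of variation was 7.0%. Alternatives were DESeq2 1.42.0, limma 3.58.1 on log2 of the deposited FPKM plus 1 or 0.1, other scalings, no filter, a robust prior, a replicate block, a strict threshold and each library left out. Figures were drawn with matplotlib 3.10.9.

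The members and lists were chosen with earlier results of these data known, so counts over them are descriptions. Every member enters the counts, medians and sums, but a few members and list genes are not reported here by name or drawn singly. Values per library are given for members past the threshold, the 2 most abundant of each class and others chosen after their values were seen: TARS3, KARS1, SARS1, AARS2, CARS1, GARS1 and MARS1. Lists name up to 4 called genes with the smallest adjusted p, or the 2 most abundant where none was called. ATF4 and AIMP1 were named outside that rule. Promoter sequences come from RefSeq on GRCh38.p14.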

Additional observations from a re-analysis of the deposited data

How the results depend on the processing

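WARS1 and FARSA kept their direction and stayed past the threshold in every fit. Over all genes 1730 rose and 1437 fell. The count that fell was 929 with TPM scaling and 887 and 909 with limma on log2 of FPKM plus 1 and plus 0.1. A stricter rule, adjusted p of at most 0.001 with a log2 fold change of at least 0.5 in size, left 258 that rose and 148 that fell, and 0 cytosolic synthetases that fell. Cytosolic members that rose, 0 in edgeR with TMM, numbered 1 without TMM (KARS1), 2 with TPM scaling (KARS1 and TARS3), 1 without the low-count filter, 1 with the robust prior and 1 with the replicate block (TARS3 each), and 1 with limma at either pseudocount (KARS1). Cytosolic members that fell, 4, numbered 2 with TPM scaling and 2 with limma, where RARS1 and IARS1 were lost, 3 without TMM, where IARS1 was lost, and 5 without the low-count filter, where MARS1 was gained. Mitochondrial members that rose numbered 1 with TPM scaling (AARS2). The tRNA supply genes that rose, 0, numbered 2 without TMM, 3 with TPM scaling and 1 with limma. TPM scaling moved the cytosolic and mitochondrial medians of -0.08 to -0.02 each. Leaving out 1 library gave 1049 to 1914 genes that rose and 814 to 1648 that fell, 0 to 1 cytosolic members that rose and 2 to 8 that fell, and medians of -0.10 to -0.06. For mitochondrial members it gave 0 to 1 that rose, 0 that fell and medians of -0.12 to -0.05, and for tRNA supply genes 0 to 2 that rose and 7 to 14 that fell. Among the members, direction changed only for genes not past the threshold. TPM scaling gave AARS1 0.02, CARS1 0.05, EPRS1 0.02, HARS2 0.02 and QARS1 0.04. CARS1 was 0.01 without TMM and 0.01 and 0.02 with limma. With 1 library left out CARS1 ranged from -0.10 to 0.13, EPRS1 from -0.08 to 0.01, MARS2 from -0.13 to 0.01, PARS2 from -0.20 to 0.09, QARS1 from -0.08 to 0.02, TARS2 from -0.02 to 0.14, VARS2 from -0.60 to 0.13, and YARS2 from -0.18 to 0.01. The cause of these shifts was not tested.

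Replicate numbers did not pair the libraries, since same-numbered libraries correlated at 0.02, -0.0185 and 0.00238 in their deviations from the group means. With the replicate block 1715 genes rose and 1382 fell, against 1730 and 1437 without it, and TARS3 had a log2 fold change of 0.40 with an edgeR adjusted p of 0.039.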
